A study of Danio rerio with 4 samples.

Results

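The checkpoint kinases of the DNA damage response and their direct partners were examined in whole zebrafish embryos. Members were the genes atm, atr, atrip, chek1, chek2, claspn, topbp1, rad9a, rad1 and hus1, taken by symbol regardless of case. Of these 10 symbols, 8 matched 1 row each among the 32057 Ensembl identifiers of the expression table, while claspn and hus1 were not matched and are not analysed here. The tested embryos were quadruple mutants of genotype mdm2-/-; puma-/-; noxa-/-; p21-/-, which the titles call abnormal. Their siblings, which the titles call normal, were mdm2+/- or mdm2+/+ and carried the same puma-/-, noxa-/- and p21-/- alleles. Both genotypes therefore lacked these pro-apoptotic (puma, noxa) and cell cycle inhibitor (p21) targets of p53, and only mdm2, the ubiquitin ligase that restrains p53, set them apart. There were 4 poly-A RNA libraries, 2 per genotype. The labels give no number of embryos per library and are silent on whether clutches differed, so the p-values reflect the spread among these 4 samples, a spread that may be technical. Embryos were 18 hours old (hours post-fertilization, hpf) by their titles and the design text but 30 hpf by the tissue label, and genotype cannot be told apart from the abnormal appearance.

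ATR and ATM are large protein kinases that sense damaged or incompletely replicated DNA. ATR is brought by its partner ATRIP to single-stranded DNA coated with RPA, is switched on there by TOPBP1, which the ring-shaped RAD9-RAD1-HUS1 clamp recruits, and passes the signal through the adaptor claspin to the effector kinase CHK1 (chek1). ATM answers broken DNA ends through the MRE11-RAD50-NBN complex and passes the signal to the effector kinase CHK2 (chek2). Both effectors hold back the CDC25 phosphatases that activate cyclin-dependent kinases, and the ATR-CHK1 branch also restrains origin firing in every normal S phase. These kinases are regulated largely by phosphorylation, which transcript levels do not show.

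Values were TPM (transcript abundance, which corrects for transcript length and gives each library the same total), and depth cannot be read from them. Each library had 15242 to 15584 genes at 1 TPM or more. The gene targeted in the comparison, mdm2, stood at 1634 and 1819 TPM in the quadruple mutants and at 81.9 and 85.1 TPM in the siblings; such a value does not separate alleles and is no check of the genotype. Of 27 marker genes for muscle, epidermis, nervous system, hatching gland, red blood cells and notochord, 26 were at 1 TPM or more in every library.

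Transcripts of 6 of the 8 checkpoint genes were lower in the quadruple mutants, 1 was higher and 1 did not pass. The 6 that fell were chek1, chek2, rad9a, topbp1, rad1 and atm, with mean levels of 2.36-fold to 6.31-fold lower TPM. The riser was atrip, at 1.99-fold the sibling level, and its binding partner atr was the gene that did not pass. Calls were made with limma on log2(TPM + 1) over the 16172 genes that reached 1 TPM in 2 or more libraries, at a Benjamini-Hochberg adjusted p under 0.05. By the same rule 37.7% of all tested genes were lower and 28.0% higher, or 65.6% in either direction; under median ratio scaling the balance over all genes turned, with 5173 lower and 5450 higher, while the 8 genes kept their counts. Both mutant libraries lay below both siblings for 6 of the 8 genes, above them for 1, and overlapped for atr; over all tested genes, 47.5% lay below in this way and 35.8% above. The median log2 change of the 8 genes was -1.44, against -0.10 for all tested genes. All 8 passed the filter on low values, 7 of them with at least 1 TPM in every library. In bulk embryos fewer cells that express a gene and less RNA per cell cannot be told apart.

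**Figure D1:**
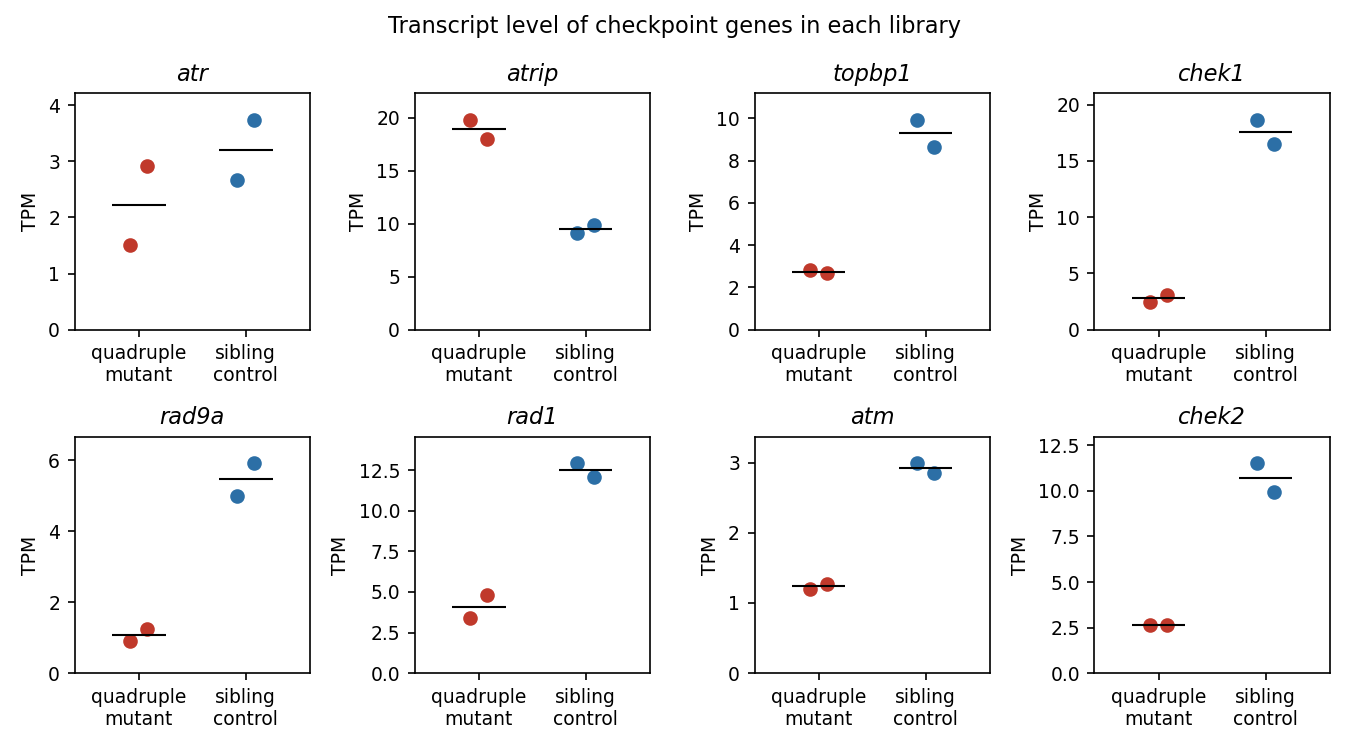
TPM (y axes, linear, each from 0) of the 8 checkpoint genes in the 2 quadruple mutant libraries (red, left) and the 2 sibling control libraries (blue, right), with black lines at the means. The red and blue points are apart for every gene except atr, and atrip is the gene whose mutant points lie on top.

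The sensor kinase gene atr (ENSDARG00000079625) had 1.51 and 2.92 TPM in the quadruple mutants and 2.67 and 3.74 TPM in the siblings. The genotypes overlapped, because mutant library 2 lay above sibling library 1. Its log2 change was -0.41 (SE 0.245, 95% interval -1.01 to 0.19, limma adjusted p = 0.185). Library 2 was the higher one within both genotypes, by 1.93-fold in the mutants and 1.40-fold in the siblings. Without mutant replicate 2 the log2 change of atr was -0.73 and its adjusted p 0.0282, and without mutant replicate 1 it was -0.09 with an adjusted p of 0.716.

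The partner gene atrip (ENSDARG00000063076), whose product docks ATR on RPA-coated DNA, had 19.8 and 18.0 TPM in the quadruple mutants and 9.16 and 9.90 TPM in the siblings. Both mutant libraries stood well above both siblings. The log2 change was 0.92 (SE 0.095, 95% interval 0.69 to 1.15, limma adjusted p = 0.000391), and 10.7% of all tested genes had a higher one. By mean level, atrip was the 1st of the 8 genes in the mutants and the 4th in the siblings. Its share of the summed TPM of the 8 genes was 57.0% and 49.2% in the mutants, against 12.6% and 14.2% in the siblings.

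The relative amount of the kinase and partner transcripts was compared within each library. TPM ratios gave 0.0762 and 0.162 atr transcripts per atrip transcript in the mutant libraries, and 0.291 and 0.378 in the sibling libraries. Both mutant ratios were below both sibling ratios, with a difference of -1.58 on the log2 scale. Such separation was common for single genes, with 47.5% of all tested genes below and 35.8% above. The share among other gene ratios was not examined. An exact 2-sided permutation test of the log2 ratio gave p = 0.33, the smallest value that 2 against 2 libraries allow. Without mutant replicate 1 the difference was -1.04, against -2.12 without mutant replicate 2.

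Both clamp genes with values fell. rad9a (ENSDARG00000056984), which carries the tail that binds TOPBP1, had 0.90 and 1.24 TPM in the quadruple mutants and 5.01 and 5.92 TPM in the siblings. Its mutant levels were close to the detection filter, so that the log2(TPM + 1) scale understates the fall: the log2 change was -1.64 (SE 0.147, adjusted p = 0.000227), and -2.26 with a pseudocount of 0.1 TPM. rad1 (ENSDARG00000040559), another ring subunit, had 3.37 and 4.82 TPM in the mutants and 12.9 and 12.1 TPM in the siblings (log2 change -1.42, SE 0.156, limma adjusted p = 0.000511). Neither gene overlapped between genotypes, although in both of them mutant library 2 was the higher mutant. In rad9a and rad1 alike that library exceeded mutant library 1, by 1.38-fold and 1.43-fold.

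The activator topbp1 (ENSDARG00000059322), a scaffold that stimulates ATR and also serves the start of replication, had 2.82 and 2.68 TPM in the quadruple mutants and 9.93 and 8.63 TPM in the siblings. The mutant libraries were nearly equal and lay below both siblings. The log2 change was -1.45 (SE 0.117, 95% interval -1.74 to -1.16, limma adjusted p = 0.000159).

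The effector kinase gene chek1 (ENSDARG00000104765) had the largest log2 change among the 8 genes, with each pseudocount tried. It had 2.50 and 3.08 TPM in the quadruple mutants and 18.7 and 16.5 TPM in the siblings. Its log2 change was -2.30 (SE 0.125, 95% interval -2.60 to -1.99, limma adjusted p = 4.1e-05), and 0.804% of all tested genes had that change or a lower one. In the mutants chek1 stood level with topbp1, and in the siblings it was the most abundant of the 8 genes.

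On the ATM branch, atm (ENSDARG00000002385) had 1.2 and 1.27 TPM in the quadruple mutants and 2.99 and 2.85 TPM in the siblings. The libraries of each genotype agreed closely and the genotypes did not overlap. The log2 change of atm was -0.81 (SE 0.12, 95% interval -1.11 to -0.51, limma adjusted p = 0.0017), and -1.18 with a pseudocount of 0.1 TPM. Its effector kinase gene chek2 (ENSDARG00000025820) had 2.65 and 2.62 TPM in the mutants and 11.5 and 9.95 TPM in the siblings. The log2 change of chek2 was -1.69 (SE 0.117, 95% interval -1.97 to -1.40, limma adjusted p = 9.3e-05). On both branches the effector kinase gene thus had a larger log2 change than the sensor kinase gene, a difference that was not tested.

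**Figure D2:**
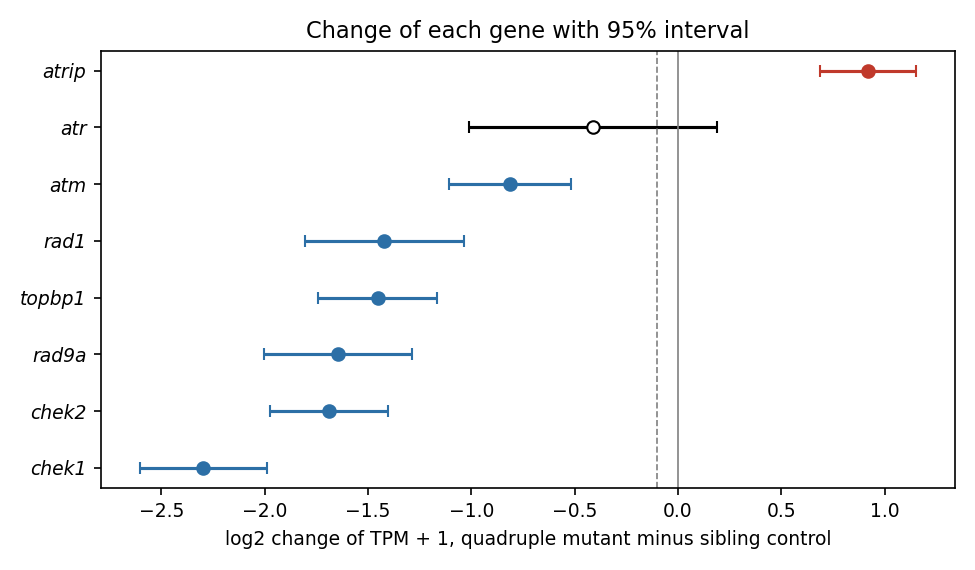
Log2 change of each checkpoint gene (x axis, log2 of TPM + 1, quadruple mutant minus sibling control) with its 95% interval from limma. Red was higher, blue was lower and the open circle did not pass; the solid line marks 0 and the dashed line the median of all tested genes at -0.10. chek1 lies farthest left at -2.30 and atrip is the gene on the right at 0.92.

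The order of the levels differed between genotypes. In the mutants it ran from atrip (18.9 ± 1.26 TPM, SD, n = 2) through rad1 (4.10 ± 1.03), chek1 (2.79 ± 0.410), topbp1 (2.75 ± 0.099), chek2 (2.64 ± 0.021) and atr (2.22 ± 0.997) to atm (1.24 ± 0.050) and rad9a (1.07 ± 0.240). The neighbours chek1 and topbp1, chek2 and atr, and atm and rad9a overlapped there. Apart from atrip and rad1, the mean levels ran from 1.07 to 2.79 TPM in the mutants. For the same genes they ran from 2.92 to 17.6 TPM in the siblings. In the siblings it ran from chek1 (17.6 ± 1.50 TPM, SD, n = 2) through rad1 (12.5 ± 0.608), chek2 (10.7 ± 1.11), atrip (9.53 ± 0.523), topbp1 (9.28 ± 0.919), rad9a (5.46 ± 0.643) and atr (3.20 ± 0.757) to atm (2.92 ± 0.099). In that order atrip and topbp1 overlapped between libraries, as did atr and atm. Leaving out atrip, the summed level was 14.9 and 18.6 TPM in the mutants and 63.7 and 59.7 TPM in the siblings.

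Ratios within a library cancel the scaling between libraries. The ratio of chek1 to chek2 was 0.943 and 1.18 in the quadruple mutants and 1.62 and 1.66 in the siblings. The difference was -0.64 on the log2 scale, and the exact permutation p was 0.33. For the clamp, the ratio of rad9a to rad1 was 0.267 and 0.257 in the mutants and 0.387 and 0.490 in the siblings, a log2 difference of -0.73 with the same exact p. Mutant ratios of topbp1 to atr, 1.87 and 0.918, were below the sibling ratios of 3.72 and 2.31 (log2 difference -1.16, exact p = 0.33). Ratios of atm to atr overlapped, at 0.795 and 0.435 in the mutants and 1.12 and 0.762 in the siblings (exact permutation p = 0.667). With 5 pairs compared and 0.33 the smallest possible p, none can pass a threshold, and the ratios are a description. How often the ratios of other gene pairs separate the genotypes was not examined.

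**Figure D3:**
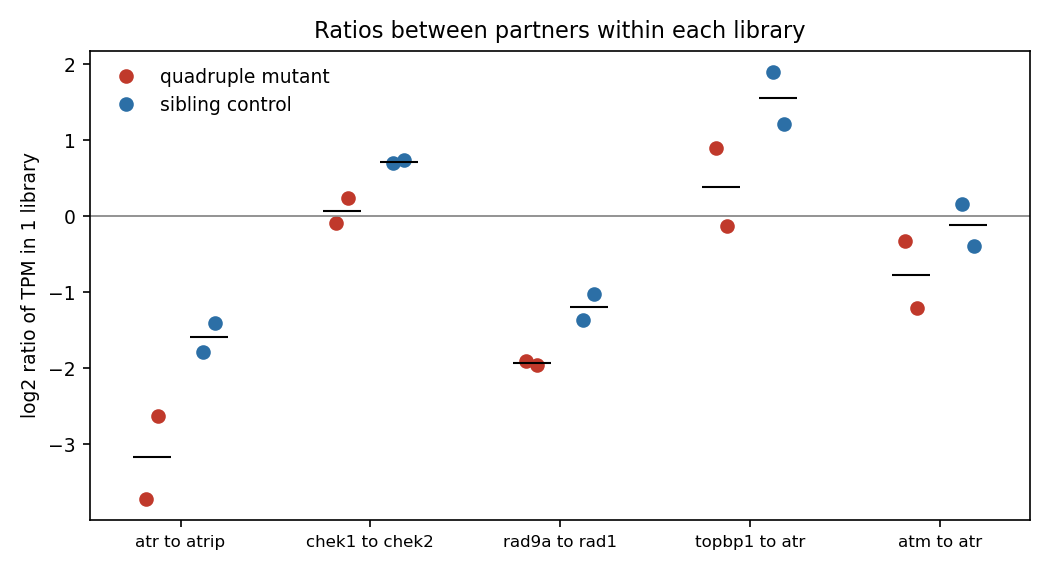
Log2 ratio of TPM between checkpoint genes within each library (y axis) for 5 pairs (x axis), with the quadruple mutants in red on the left of each pair and the sibling controls in blue on the right, and black lines at the means. The groups are apart for 4 pairs and overlap for atm to atr; the widest gap between means is that of atr to atrip.

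Around the ATR branch, 13 of 15 tested genes that activate the kinase or protect forks fell, 0 rose and 2 did not pass (median log2 change -1.82). The shares over all tested genes were 37.7% lower and 28.0% higher. All 3 subunits of RPA, the single-strand binding complex that ATRIP recognises, were lower: rpa1 had 28.7 and 35.2 TPM in the quadruple mutants and 140 and 139 TPM in the siblings (log2 change -2.10, SE 0.101), rpa2 changed by -2.38 and rpa3 by -1.96. The small clamp loader subunits rfc2, rfc3, rfc4 and rfc5, which serve replication and the checkpoint alike, changed by -2.21, -2.0, -1.97 and -1.82. The checkpoint-specific loader subunit rad17, by contrast, had 4.12 and 4.26 TPM in the mutants and 6.71 and 5.06 TPM in the siblings and did not pass (log2 change -0.40, SE 0.146, limma adjusted p = 0.0528). Its adjusted p was 0.0312 without sibling replicate 2 and 0.0475 with a filter of 5 TPM. The ratio of rad17 to the summed loader subunits was 0.053 and 0.0454 in the mutants and 0.0188 and 0.0145 in the siblings. That ratio, chosen after the values were seen, did not overlap between genotypes (exact permutation p = 0.33), and how often other ratios do so was not examined.

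Other ATR cofactors fell as well. The alternative ATR activator etaa1a changed by -1.14, the clamp-interacting gene rhno1 by -0.71 (limma adjusted p = 0.017, and 0.0778 without sibling replicate 1), and the fork protection genes timeless and tipin by -0.99 and -0.50. The end resection factor rbbp8 had 0.63 and 1.07 TPM in the mutants and 4.24 and 6.97 TPM in the siblings (-1.81, SE 0.234). The fork factor wdhd1 changed by -2.49. The kinase gene nek1 overlapped between genotypes (0.07), and rad9b, the paralogue of rad9a, stayed at 0.18 TPM or below in each library and was not tested.

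Around the ATM branch, 7 of 12 tested genes fell, 1 rose and 4 did not pass (median log2 change -0.61). Over all tested genes 37.7% were lower and 28.0% higher. The share of this list called in either direction was near the 65.6% of all tested genes. In the complex that brings ATM to broken ends, mre11 had 2.43 and 2.51 TPM in the quadruple mutants and 12.3 and 12.1 TPM in the siblings (log2 change -1.93, SE 0.102), and rad50 changed by -1.29. The third subunit, nbn, through which the complex contacts ATM, had 6.45 and 6.31 TPM in the mutants and 7.47 and 7.90 TPM in the siblings and did not pass (-0.23, limma adjusted p = 0.0812). The ratio of nbn to mre11, chosen after the values were seen, was 2.65 and 2.51 in the mutants and 0.607 and 0.654 in the siblings.

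The chromatin mediators that amplify the ATM signal were split as well. The scaffolds tp53bp1 (-2.17, SE 0.126) and mdc1 (-1.94, SE 0.129) fell, as did the ubiquitin ligase gene rnf168 (-0.67), bard1 (-1.05) and abraxas1 (-0.55). Against the list, the histone variant gene h2ax (ENSDARG00000029406), whose product is phosphorylated by ATM at breaks, had 79.4 and 69.1 TPM in the mutants and 56.6 and 51.4 TPM in the siblings and rose by 0.45 (SE 0.090, limma adjusted p = 0.00572). Those that did not pass were the ligase gene rnf8 (-0.05), the acetyltransferase gene kat5b (0.13) and the deubiquitinase gene brcc3 (0.18) beside nbn. kat5b was called higher under median ratio scaling (0.26, adjusted p = 0.0424) and brcc3 without mutant replicate 2 (0.37, adjusted p = 0.0105).

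ATM and ATR belong to a family of large kinases, the PIKKs, that need a shared chaperone for their assembly. Of 9 tested genes of this group 8 fell, 0 rose and 1 did not pass (median log2 change -0.91), beside 37.7% lower over all tested genes. All 3 genes of the TELO2-TTI1-TTI2 chaperone were lower, tti1 with 1.64 and 2.12 TPM in the quadruple mutants and 6.27 and 5.90 TPM in the siblings (-1.30, SE 0.133), tti2 by -1.13 and telo2 by -0.85. The ATPase genes ruvbl1 and ruvbl2, which act with it, changed by -0.62 and -0.91. Among the relatives of ATM and ATR, prkdc, the DNA repair kinase, changed by -1.32, the acetyltransferase scaffold trrap by -1.29 and the RNA surveillance kinase smg1 by -0.54. prkdc was under 1 TPM in both mutants, passed the filter through the siblings alone, and was untested without either sibling. The growth kinase gene mtor, at 7.55 and 6.36 TPM in the mutants and 7.92 and 7.65 TPM in the siblings, did not pass (-0.15, limma adjusted p = 0.301).

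Downstream, among genes through which CHK1 and CHK2 act on the cell cycle, 7 of 11 tested fell, 2 rose and 2 did not pass (median log2 change -0.73). All tested genes had 37.7% lower and 28.0% higher. The phosphatase gene cdc25b had 16.4 and 16.2 TPM in the quadruple mutants and 31.9 and 27.9 TPM in the siblings (-0.83, SE 0.090). Another gene of that family, cdc25a, was not matched by symbol and has no values here. The kinases that oppose CDC25 did not pass: wee1 had 21.5 and 25.9 TPM in the mutants and 24.5 and 24.9 TPM in the siblings (-0.06), and pkmyt1 had a log2 change of -0.29 with a limma adjusted p of 0.0602, and of 0.0323 with no variance trend. The cyclin-dependent kinase genes fell, cdk1 with a log2 change of -1.47 and cdk2 with one of -2.28. The cyclin genes ccna2 (-2.22) and ccnb1 (-0.94) fell as well.

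The risers of that list were cdc25d and tlk2. cdc25d, a phosphatase gene of the CDC25 family, had 8.09 and 8.62 TPM in the mutants and 0.07 and 0.24 TPM in the siblings (log2 change 3.02, SE 0.134); it passed the filter through the mutants alone and was untested without either of them. The tousled-like kinases act on histone supply during replication and are inhibited through CHK1. tlk2 had 27.9 and 24.9 TPM in the mutants and 13.5 and 13.0 TPM in the siblings (0.94, SE 0.089), whereas the 2 copies of tlk1 changed by -0.73 (ENSDARG00000042467) and -0.32 (ENSDARG00000100715). The second copy did not pass without either sibling (adjusted p = 0.0685 without sibling replicate 1 and 0.0889 without sibling replicate 2) or under median ratio scaling (0.0943). The ratio of tlk2 to summed tlk1, chosen after the values were seen, was 0.696 and 0.627 in the mutants and 0.235 and 0.233 in the siblings.

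Of 10 tested genes that end a checkpoint, 6 fell, 1 rose and 3 did not pass (median log2 change -0.30). Over all tested genes 37.7% were lower and 28.0% higher. The share called in either direction was near the 65.6% of all tested genes. The recovery kinase plk1, which marks claspin for destruction, had 46.2 and 53.7 TPM in the quadruple mutants and 160 and 157 TPM in the siblings (-1.65, SE 0.083). Its activators aurka (-1.65) and bora (-1.69) and the deubiquitinase gene usp1 (-1.87) fell by similar amounts. Of the 2 copies of ppm1d, the p53-induced phosphatase that reverses ATM signalling, ENSDARG00000021380 did not pass (0.00) and ENSDARG00000009273 was lower (-0.37). That call was lost without sibling replicate 1 (adjusted p = 0.0558) or sibling replicate 2 (0.087). The riser was a copy of the phosphatase scaffold ppp2r1b (ENSDARG00000032430; 0.28), not past the test without sibling replicate 2 (adjusted p = 0.0763). The other copy (ENSDARG00000007791; -0.23) did not pass under median ratio scaling (0.185), with no variance trend (0.0544), without sibling replicate 1 (0.103) or without sibling replicate 2 (0.0805).

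**Figure D4:**
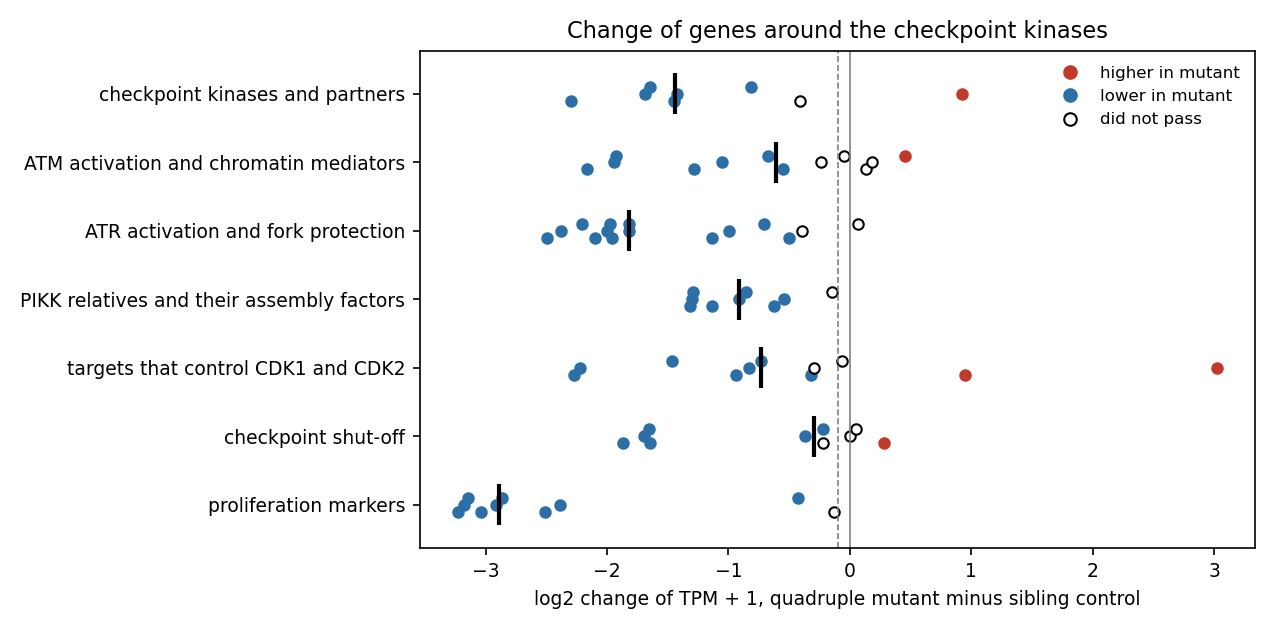
Log2 change of every tested gene (x axis, log2 of TPM + 1, quadruple mutant minus sibling control) in the checkpoint set and in lists of related genes (rows), in red where higher, blue where lower and open where the test was not passed. Thick bars are medians, the solid line marks 0 and the dashed line the median of all tested genes; proliferation markers have the lowest median, -2.89.

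Markers of proliferating cells and of several tissues differed between genotypes alongside these genes. Their counts stand beside 37.7% lower, 28.0% higher and 65.6% in either direction over all tested genes. Whether any of these short lists exceeds those shares was not tested. Of 10 tested rows of proliferation markers 9 fell, 0 rose and 1, a low copy of mcm6 (ENSDARG00000033231), did not pass (median log2 change -2.89). Their summed level was 885 and 959 TPM in the quadruple mutants and 2406 and 2395 TPM in the siblings. The replication clamp gene pcna, with 730 and 754 TPM in the mutants and 997 and 1003 TPM in the siblings, changed by -0.43. The neural markers elavl3, sox3, sox19a, neurog1 and sox2 fell, 5 of 5, with a summed level of 191 and 237 TPM in the mutants and 615 and 634 TPM in the siblings. Muscle markers fell in 4 of 5 (1 rose), with summed levels of 697 and 659 TPM in the mutants and 781 and 801 TPM in the siblings. Erythroid markers fell in 3 of 4, with 132 and 120 TPM in the mutants and 267 and 279 TPM in the siblings, and 1 did not pass. In the direction of atrip, 4 of 4 hatching gland markers rose: he1.1 (0.72), he1.2 (0.71), cd63 (0.49) and xbp1 (0.24). Their summed level was 3751 and 3840 TPM in the mutants and 2356 and 2401 TPM in the siblings. How specific cd63 and xbp1 are to that gland was not examined. Of 5 epidermis markers 3 rose, 1 fell and 1 did not pass, with 9165 and 8703 TPM in the mutants and 7227 and 7416 TPM in the siblings. None of the 4 notochord marker rows passed (0 at an adjusted p under 0.05 by limma), although tbxta was called higher under median ratio scaling (adjusted p = 0.00661), quantile normalization (0.0484) and without mutant replicate 1 (0.0185), and col2a1 (ENSDARG00000069093) lower without mutant replicate 1 (0.0235). Calls of the tissue markers acta1 (ENSDARG00000036371), tp63 and xbp1 were lost without sibling replicate 1 (adjusted p = 0.0986, 0.0871 and 0.0548), and those of acta1 and xbp1 also without sibling replicate 2 (0.0768 and 0.0933) and with no variance trend (0.0716 and 0.0508). krt5 was called higher under median ratio scaling (adjusted p = 0.0265). The part of these cell populations in the change of the checkpoint genes was not tested.

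In a RefSeq gene table of another assembly, GRCz12tu, the genes next to each checkpoint gene could be named. The neighbours of atrip moved with it: si:dkey-42i9.4 had 426 and 406 TPM in the quadruple mutants and 187 and 195 TPM in the siblings (log2 change 1.12, SE 0.053), and shisa10.1 had 86.5 and 92.8 TPM in the mutants and 44.9 and 44.4 TPM in the siblings (0.99, SE 0.064). No gene in that table overlapped atrip. By contrast, dscamb, bace2 and a locus without a gene name overlapped atm, and another such locus overlapped atr. The sources used here do not say how reads were assigned between genes and strands. The neighbours of rad1 moved the other way. They are bbc3, which is puma itself and is mutated in both genotypes, and the ciliary transport gene ift20; bbc3 rose by 3.70 (SE 0.119) and ift20 by 1.18 (SE 0.097), while rad1 fell. Next to chek1, the ciliary gene cfap53 rose by 1.77 (SE 0.12). gstt2, which overlaps chek2 in that table, had 3.92 and 4.31 TPM in the mutants and 4.66 and 4.54 TPM in the siblings and did not pass (-0.13, limma adjusted p = 0.338). Next to topbp1, tmem108 rose by 0.38.

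The genes with the most similar pattern were found by the Euclidean distance between mean-centred log2(TPM + 1) values over the 4 libraries. Genes without a symbol or with a clone-type name were skipped, so unnamed genes may lie nearer. Nearest to chek1 were haus4, a subunit of the spindle augmin complex, with 2.40 and 2.88 TPM in the quadruple mutants and 17.5 and 16.0 TPM in the siblings (distance 0.0393), the chromatin assembly gene chaf1b (0.0768) and the origin recognition gene orc5 (0.0908). Nearest to atrip were rtcb, an RNA ligase gene, with 63.2 and 57.4 TPM in the mutants and 30.7 and 31.7 TPM in the siblings (distance 0.0437), h2ax1 (0.0475) and ppap2d (0.0505). With 4 libraries in 2 genotypes, such a likeness says little more than that these genes changed by a similar amount.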

How the data were processed

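The deposited values were TPM per Ensembl gene, made by the authors, with 1 column per library. The submitters' processing notes list the build GRCz11 and, with no role stated, RSEM 1.3.3, STAR 2.7.3a, DESeq2 1.42.1, R 4.3.3 and HTSeq 0.12.3. The sources used here do not say which of them gave the TPM, nor the annotation and strand setting. TPM keep no depth, so no count model, counting interval or detection floor based on counts was used. The filter on low values was set in TPM. Identifiers were named from a table that held a symbol for 28988 of 32057. Symbols of the lists were matched regardless of case, then without the zebrafish copy letter.

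The 16172 genes that reached 1 TPM in 2 or more libraries were fitted on the log2(TPM + 1) scale in limma 3.58.1 (R 4.3.3, variance trend on), with Benjamini-Hochberg adjustment over all of them. The fit was also run on 5 simulated data sets with 200 changed genes each, far fewer than were called here. On average it recovered 62.8% of 2-fold and 88.8% of 4-fold changes, and 3.79% of its calls were false. Spreads were shuffled over genes there, so the variance trend of the data was lost. These rates therefore need not hold for the data. Tables and figures used Python 3.11.15, pandas 2.3.3, scipy 1.17.1 and matplotlib 3.10.9. Named genes were all members, up to 4 genes per list with the lowest p, genes against their list's direction and the main CDK regulators; other genes were named after their values were seen. Members, lists and tests were chosen with earlier results of these data known. Promoter and protein sequences were not analysed here. The following alternatives were run: a replicate block, a fit with no variance trend, quantile normalization, scaling by median ratios, pseudocounts of 5 and 0.1 TPM, a 5 TPM filter or none, and omission of each library, where the lone one left is taken to vary as the other genotype does.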

Additional observations from a re-analysis of the deposited data

How the results depend on the processing

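The call and direction of atrip, chek1, chek2, rad1, rad9a and topbp1 held in all 12 alternatives, and those of atm in the 11 in which it was tested; atm and atr fell out under the filter of 5 TPM. Log2 changes ranged from -2.62 to -1.54 for chek1 and from 0.72 to 1.05 for atrip, with a pseudocount of 5 TPM giving the smallest size for each. Median ratio scaling moved the median of all tested genes from -0.10 to 0.02; relative to the median of -0.10 the log2 changes were -2.20 for chek1, -0.71 for atm, -0.31 for atr and 1.02 for atrip. The log2 difference in the ratio of atr to atrip was -0.91 with a pseudocount of 5 TPM, which shrinks low genes, and -2.12 to -1.04 with 1 library left out; for chek1 to chek2 it was -0.80 to -0.48 with 1 library left out. Replicate numbers are shared between genotypes, but the labels do not say that they pair libraries, and deviations of same-numbered libraries from their genotype means correlated at 0.0488 across genes. With the replicate block, 7 checkpoint genes were lower, atr having an adjusted p of 0.0446; the block changed no other call among the 8, and rad17 then had an adjusted p of 0.0493. Over all alternatives the adjusted p of atr ran from 0.0282 to 0.716. With 1 library left out, 7724 to 9907 genes were called over the whole table, against 10613 with all 4. TPM hide depth, so the counting precision of genes near 1 TPM, such as rad9a and atm in the mutants, is not known. Their limma standard errors rest partly on the agreement of their own libraries (2 residual degrees of freedom). They rest more on the variance trend over all tested genes (3.91 prior degrees of freedom).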

Other observations

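Library 2 and library 1 of the quadruple mutants did not differ evenly across the checkpoint genes. Library 2 had more atr (1.93-fold), rad1 (1.43-fold), rad9a (1.38-fold) and chek1 (1.23-fold), while chek2 (0.989-fold), topbp1 (0.95-fold), atm (1.06-fold) and atrip (0.91-fold) differed less. Between the siblings the same ratio of library 2 to library 1 was 1.40 for atr and 1.18 for rad9a, and lay between 0.864 and 1.08 for the others.

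A further H2AX gene, h2ax1 (ENSDARG00000068995), was more abundant than h2ax, at 514 and 479 TPM in the mutants and 262 and 276 TPM in the siblings (log2 change 0.88, SE 0.058, limma adjusted p = 7.72e-05). Both rose, and by their symbols both are genes of the histone variant that ATM and ATR phosphorylate. h2ax1 is named because its pattern lies near that of atrip. Its rise and its adjusted p follow from that choice and add nothing to the rise of h2ax.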
